A study of Mus musculus with 9 samples.

Results

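Mitochondrial ribosomal proteins are the protein part of the ribosomes that work inside mitochondria. Their genes were taken as the rows of the deposited expression table whose name began with Mrpl or Mrps followed by a digit. Of 35024 rows, 83 had such a name, 5 of these were pseudogene copies and were dropped, and none lay at the lowest value of the table in more than 5 libraries. This left 78 genes, 49 named Mrpl and 29 named Mrps, on 17 chromosomes. All 78 lay above the lowest value in all 9 libraries and all were among the 17203 genes tested. The cells were hepatic stellate cells, the retinoid-storing cells of the liver sinusoid that lay down scar matrix after injury. The 5 libraries labelled control came from YAP floxed mice without LratCre, and the 4 labelled YAP-deleted came from LratCre+ YAP floxed mice, all on a C57BL/6J background. The Lrat promoter drives Cre in stellate cells, and effects of the Cre transgene and of the deletion cannot be told apart. Both groups received 6 intraperitoneal injections of CCl4, a liver toxin, at intervals of 3 days, and cells were sorted on retinoid autofluorescence 2 days after the last one. The sort selected cells that still carried retinoids, and no uninjured liver was compared. The age of the mice, and whether each library was a separate mouse, are not given in the sources used here, so p-values measure only how these libraries vary, which may be in part technical.

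The mitochondrial ribosome has a large and a small subunit and makes the few proteins that mitochondrial DNA encodes, all of them parts of the oxidative phosphorylation complexes. Its RNAs are transcribed in the mitochondrion, whereas its proteins are encoded in the nucleus, made in the cytosol and imported. Names do not always give the place: the products of Mrps18a and Mrps30 sit in the large subunit, and that of Mrps36 serves as an adaptor of the oxoglutarate dehydrogenase complex. By place, the 78 genes comprised 51 of the large subunit, 26 of the small subunit and Mrps36. Many of these genes start at CpG-rich promoters, where NRF1 and ETS-family factors such as GABP are known regulators of nuclear genes for mitochondrial proteins.

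Promoter sequences are shown as a description, with no test of any factor or of shared regulation. The joint variation of the genes between libraries, described further on, lay mostly in the library LYT013. RefSeq start sites on GRCm38.p6 gave a window from 250 bases before to 50 bases after the start for 69 of the 78 genes. The motifs of NRF1, ETS factors and YY1 were searched on both strands. The NRF1 letters, GCGC then A, any base and GCGC, stood in 13 windows (18.8%), against 8.93% of the 12287 tested genes with a window and 4.78% of all 27025 windows. The ETS letters CCGGAAG stood in 25 windows (36.2%), against 15.6% and 9.12%. The YY1 letters ATGGCGG stood in 13 windows (18.8%), against 7.11% and 4.19%. At least 1 of the motifs stood in 41 windows (59.4%), against 27.6% of tested genes and 16% of all windows. For each motif the share among the ribosomal protein genes was above that among tested genes. The tested genes were not matched to them for GC content or level. Whether other genes with CpG-rich promoters hold these motifs as often was not tested. Matches of different motifs can share at most 1 end base, and a window was counted once however many matches it held.

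The 250 bases upstream of the start are given for 4 of these genes, those with the smallest p in the group comparison whose upstream bases held an NRF1 or ETS match and did not run into the gene as GENCODE draws it. Each is written 5′ to 3′ on the strand of its gene, and capitals mark the ETS letters or their reverse complement.
Mrpl34, chr8:71464676-71464925, plus strand: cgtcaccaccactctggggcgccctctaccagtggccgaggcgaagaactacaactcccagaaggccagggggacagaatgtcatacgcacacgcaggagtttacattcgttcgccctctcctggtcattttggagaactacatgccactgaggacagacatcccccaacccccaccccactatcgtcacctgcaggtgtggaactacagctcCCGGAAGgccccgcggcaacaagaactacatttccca
Mrpl52, chr14:54426659-54426908, plus strand: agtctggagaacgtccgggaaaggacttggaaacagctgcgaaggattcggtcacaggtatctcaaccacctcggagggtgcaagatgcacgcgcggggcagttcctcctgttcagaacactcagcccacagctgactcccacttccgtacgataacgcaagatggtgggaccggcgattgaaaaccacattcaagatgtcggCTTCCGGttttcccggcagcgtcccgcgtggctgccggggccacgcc
Mrps27, chr13:99344536-99344785, plus strand: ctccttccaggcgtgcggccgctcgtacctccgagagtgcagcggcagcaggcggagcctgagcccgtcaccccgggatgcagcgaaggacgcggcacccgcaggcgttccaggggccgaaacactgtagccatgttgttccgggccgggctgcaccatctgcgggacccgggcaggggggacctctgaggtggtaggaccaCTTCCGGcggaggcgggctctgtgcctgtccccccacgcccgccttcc
Mrpl43, chr19:45006443-45006692, minus strand: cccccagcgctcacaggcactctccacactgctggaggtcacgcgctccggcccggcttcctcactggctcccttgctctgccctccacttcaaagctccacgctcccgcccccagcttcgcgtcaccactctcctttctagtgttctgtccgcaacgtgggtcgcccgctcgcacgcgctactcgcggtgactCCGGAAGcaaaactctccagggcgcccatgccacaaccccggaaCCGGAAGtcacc
Among upstream ETS matches, the one nearest to the start ended 31 bases before it in Mrpl34, 41 in Mrpl52, 42 in Mrps27 and 6 in Mrpl43. In Mrpl43 a further match ended 50 bases before the start. Mrpl52 also held 1 ETS match after the start, in bases that are not printed. In Mrpl34 and Mrpl43 the printed matches read CCGGAAG on the strand of the gene, and in Mrpl52 and Mrps27 they read CTTCCGG.

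The depth recovered from the values was 14052502 to 31816055 counts per library and was greatest in LYT013. The 11 stellate markers summed to 656000 to 1087000 normalised counts (counts divided by the size factor of the library), against 403.7 to 1391 for 10 hepatocyte, 1016 to 4361 for 8 endothelial, 677 to 2121 for 10 macrophage, 3225 to 8203 for 5 portal fibroblast and 1.885 to 13.76 for 7 lymphocyte markers. Yap1 checked the labels. It stood at 2902, 2915, 3653 and 3551 normalised counts in controls LYT004, LYT005, LYT015 and LYT017 and at 642.3, 648.0 and 644.9 in YAP-deleted LYT006, LYT008 and LYT016. LYT014, labelled control, had 617.9, and LYT013, labelled YAP-deleted, had 2530, so both went against their labels and are given apart below, where control and YAP-deleted always mean the group a library is labelled with. Over 9 libraries the Yap1 difference, YAP-deleted minus control, was -1.30 ± 0.54 log2-like units (SE, limma adjusted p = 0.649, exact two-sided permutation p = 0.0794 over 126 regroupings). Over the other 7 libraries it was -2.22 ± 0.10 (limma adjusted p = 8.97e-05). Because LYT013 and LYT014 were set apart by their Yap1 level, this p-value is no independent check of the labels.

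Every gene of the mitochondrial ribosome was measured well above the floor, at 14 to 1856 counts per gene and library. Per kilobase of transcript, the level of the 78 genes had a median of 245.4 normalised counts, the mean of 9 libraries per gene, which lies at percentile 66.74 of the 17110 tested genes with a known length. The large subunit had a median of 266.6 and the small subunit 214.1. Mrpl52, a large-subunit protein, was highest at 1163 ± 568 normalised counts per kilobase (SD, n = 9). Mrps21 of the small subunit followed at 1020 ± 444. Mrpl4, Mrpl42 and Mrpl30 of the large subunit stood at 760 ± 226, 752 ± 201 and 720 ± 184. Over 9 libraries these neighbours differed by less than their SD, which LYT013 widened. Over the 8 libraries without it, Mrpl52 had 977 ± 104 and Mrps21 875 ± 97.3, which still overlapped, and Mrpl4 had 690 ± 93.0, below Mrps21 by more than either SD. Mrpl42 and Mrpl30 then had 688 ± 67.2 and 662 ± 62.3, within the SD of Mrpl4 and of each other. At the other end, Mrpl19 had 37.4 ± 7.28, Mrps25 of the small subunit 38.3 ± 8.53 and Mrpl23 46.2 ± 23.8 normalised counts per kilobase. These 3 overlapped within their SD, over 9 libraries and over the 8. Genes of the same particle thus spanned a wide range of level per length, and these values depend on the annotated transcript lengths.

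Some of these genes share sequence with other transcripts, which affects how reads are divided. In 47 of the 78 genes under 5% of the 31-base words of the transcripts also occurred in transcripts of another gene. In 20 the share was over 10%, and in Mrpl53 and Mrpl23 it was over 50%. Every such word of Mrpl53 also occurred in Gm42688, so its value is uncertain. Mrpl23, a protein near the exit of the nascent chain, shares them with its copy Mrpl23-ps1. Mrpl23 had 17.2 to 45.2 normalised counts in the 8 libraries other than LYT013 and 65.8 in LYT013, and Mrpl23-ps1 had 179 to 283 and 675. Mrpl23 thus received 6.33% to 16.2% of the counts of the pair. The sum of the pair was 214 to 316 in 8 libraries and 741 in LYT013, and the value of Mrpl23 alone depends on how the reads were divided.

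The main comparison asked whether these transcripts differed between cells labelled YAP-deleted and control. No gene of the mitochondrial ribosome passed the threshold in either direction: 0 of 78 were higher and 0 lower at a limma adjusted p under 0.05, where 0% of all 17203 tested genes were called higher and 0% lower. With limma voom on the recovered counts the number was also 0. Differences were small and nearly all of one sign. The difference was positive in 77 of 78 genes, against 49.1% of all genes, with a median of 0.21 log2-like units (from -0.03 to 0.50), against -0.005 over all genes. At an unadjusted limma p under 0.05, 4 genes were higher and 0 lower, against 3.53% and 3.69% of all genes, and voom gave 5 higher. The 78 adjusted limma p-values ran from 0.649 to 0.990. The 51 large-subunit genes were all positive with a median of 0.20, and of the 26 small-subunit genes 25 were positive with a median of 0.22.

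The differences lay around 0 without LYT013. Without LYT013 and LYT014, over 7 libraries and 16372 genes, the median was 0.01, with 50 genes positive and 28 negative, against 48.9% positive over all genes. Leaving out LYT013 alone gave a median of 0.04 with 55 positive and 23 negative. In the 7 libraries 0 of the 78 genes were higher and 0 lower at an adjusted limma p under 0.05, against 0.0183% and 0.0489% of all genes. At an unadjusted limma p under 0.05, 3 were higher, namely Mrpl38, Mrpl4 and Mrpl52, and 0 lower, against 3.32% and 3.09% of all genes. Large-subunit genes had a median of 0.01 (31 positive, 20 negative) and small-subunit genes 0.02 (18 positive, 8 negative). In bulk RNA, fewer cells of a type and less RNA per cell cannot be told apart, which holds for every level given here.

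**Figure D1:**
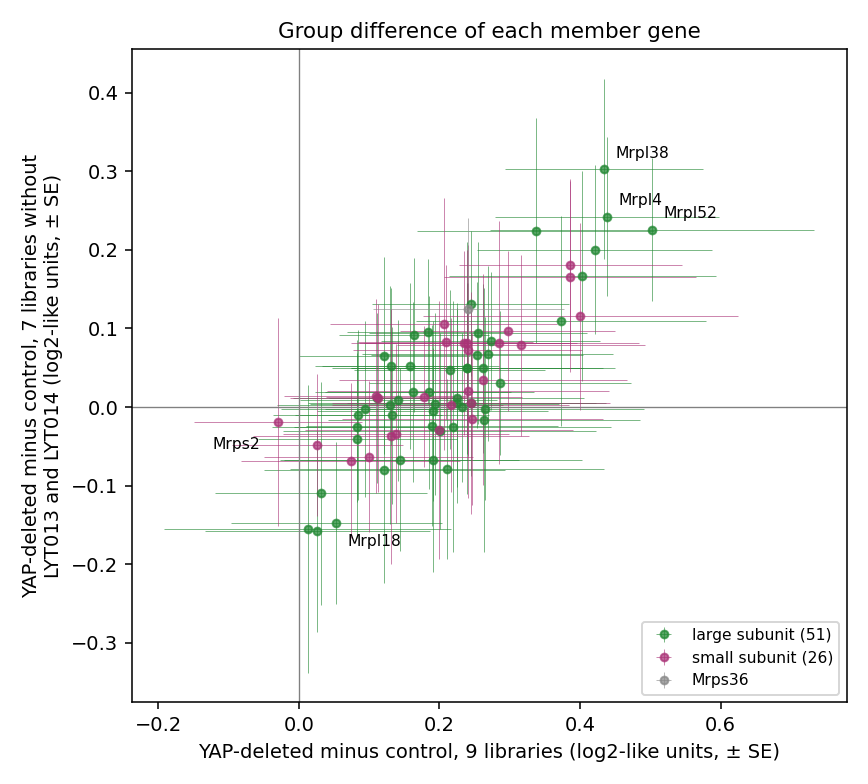
Difference of each of the 78 genes between YAP-deleted and control in log2-like units with its SE, over 9 libraries (x axis) against the 7 libraries without LYT013 and LYT014 (y axis), coloured by subunit. Along x, 77 of 78 genes lie right of 0, with a median of 0.21, and along y the genes lie around 0, with a median of 0.01; the axes share 7 libraries.

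The genes with the smallest p-values belonged to both subunits. Mrpl38 (chromosome 11, 116131817 to 116138868, minus strand, GENCODE on GRCm38), a protein of the mitochondrial large subunit, had 278, 304, 383 and 302 normalised counts in controls LYT004, LYT005, LYT015 and LYT017 and 435, 379 and 393 in LYT006, LYT008 and LYT016. LYT014 had 311 and LYT013 had 600. The highest control, LYT015, lay just above the lowest YAP-deleted library, LYT008, so the groups overlapped. The difference was 0.43 ± 0.14 (SE) over 9 libraries (limma adjusted p = 0.649) and 0.30 ± 0.11 over 7 (limma adjusted p = 0.731).

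Mrpl4 (chromosome 9, 21002738 to 21008839, plus strand), whose product has a counterpart in bacterial ribosomes, had 477, 524, 518 and 587 normalised counts in controls LYT004, LYT005, LYT015 and LYT017. YAP-deleted LYT006, LYT008 and LYT016 had 692, 646 and 565, LYT014 had 490 and LYT013 had 1073. LYT016 lay below control LYT017, so the groups overlapped by this 1 library. The difference was 0.44 ± 0.16 over 9 libraries (limma adjusted p = 0.649) and 0.24 ± 0.10 over 7 (limma adjusted p = 0.751).

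Mrpl52 (chromosome 14, 54426909 to 54429756, plus strand) was the only gene of the 78 whose labelled groups did not overlap in 9 libraries, where 1.69% of all genes were higher and 1.15% lower without overlap. It had 353, 388, 413, 404 and 360 normalised counts in controls LYT004, LYT005, LYT014, LYT015 and LYT017. In those labelled YAP-deleted it had 421 (LYT006), 486 (LYT008), 1111 (LYT013) and 442 (LYT016). The mean was 383 ± 26.4 (SD, n = 5) in control and 615 ± 332 (SD, n = 4) in YAP-deleted, and 450 ± 33.2 (SD, n = 3) in YAP-deleted without LYT013. The difference was 0.50 ± 0.23 over 9 libraries (limma adjusted p = 0.649) and 0.23 ± 0.09 over 7 (limma adjusted p = 0.740). In the 7 libraries Mrpl52 was still without overlap, as 1 of 78 higher against 3.93% of all genes, and Mrpl18 was the 1 of 78 lower, against 3.66%. Mrpl18, of the large subunit and named here after its values were seen, had 283, 357, 292 and 289 normalised counts in the controls and 271, 278 and 259 in the YAP-deleted libraries of the 7. LYT014 had 226, the lowest of all, and LYT013 had 411, the highest. The Mrpl18 difference was -0.15 ± 0.10 over 7 libraries and 0.05 ± 0.15 over 9.

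Mrpl34 (chromosome 8, 71464959 to 71465747, plus strand), a small protein with a bacterial counterpart and the first promoter shown above, had 158, 171, 185 and 184 normalised counts in controls LYT004, LYT005, LYT015 and LYT017. LYT006, LYT008 and LYT016 had 226, 184 and 216, LYT014 had 144 and LYT013 had 378. LYT008 lay level with the higher controls. The difference was 0.42 ± 0.17 over 9 libraries and 0.20 ± 0.11 over 7. Mrps24 of the small subunit (chromosome 11, 5703983 to 5715680, minus strand) ran from 227 in LYT014 to 292 in LYT005 among controls and had 316, 366, 531 and 281 in LYT006, LYT008, LYT013 and LYT016. The groups overlapped at LYT016. The Mrps24 difference was 0.39 ± 0.16 over 9 libraries and 0.18 ± 0.11 over 7. Mrps12, a protein of the decoding centre where codon and anticodon meet, ran from 199 in LYT004 to 286 in LYT005 among controls and had 285, 297, 523 and 252 in the same libraries labelled YAP-deleted. Its groups overlapped too, with a difference of 0.39 ± 0.18 over 9 libraries and 0.17 ± 0.12 over 7. None of these 3 genes passed the test (limma adjusted p = 0.649 each over 9 libraries).

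Mrps2 (chromosome 2, 28468066 to 28471178, plus strand), a small-subunit protein, was the only one of the 78 with a negative difference over 9 libraries, at -0.03 ± 0.12 (limma adjusted p = 0.947). It had 283, 406, 365, 398 and 355 normalised counts in the 5 controls, in the order LYT004, LYT005, LYT014, LYT015 and LYT017, and 311, 393, 347 and 355 in LYT006, LYT008, LYT013 and LYT016. LYT005 was highest and LYT004 lowest, so the controls spanned the whole YAP-deleted range.

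**Figure D2:**
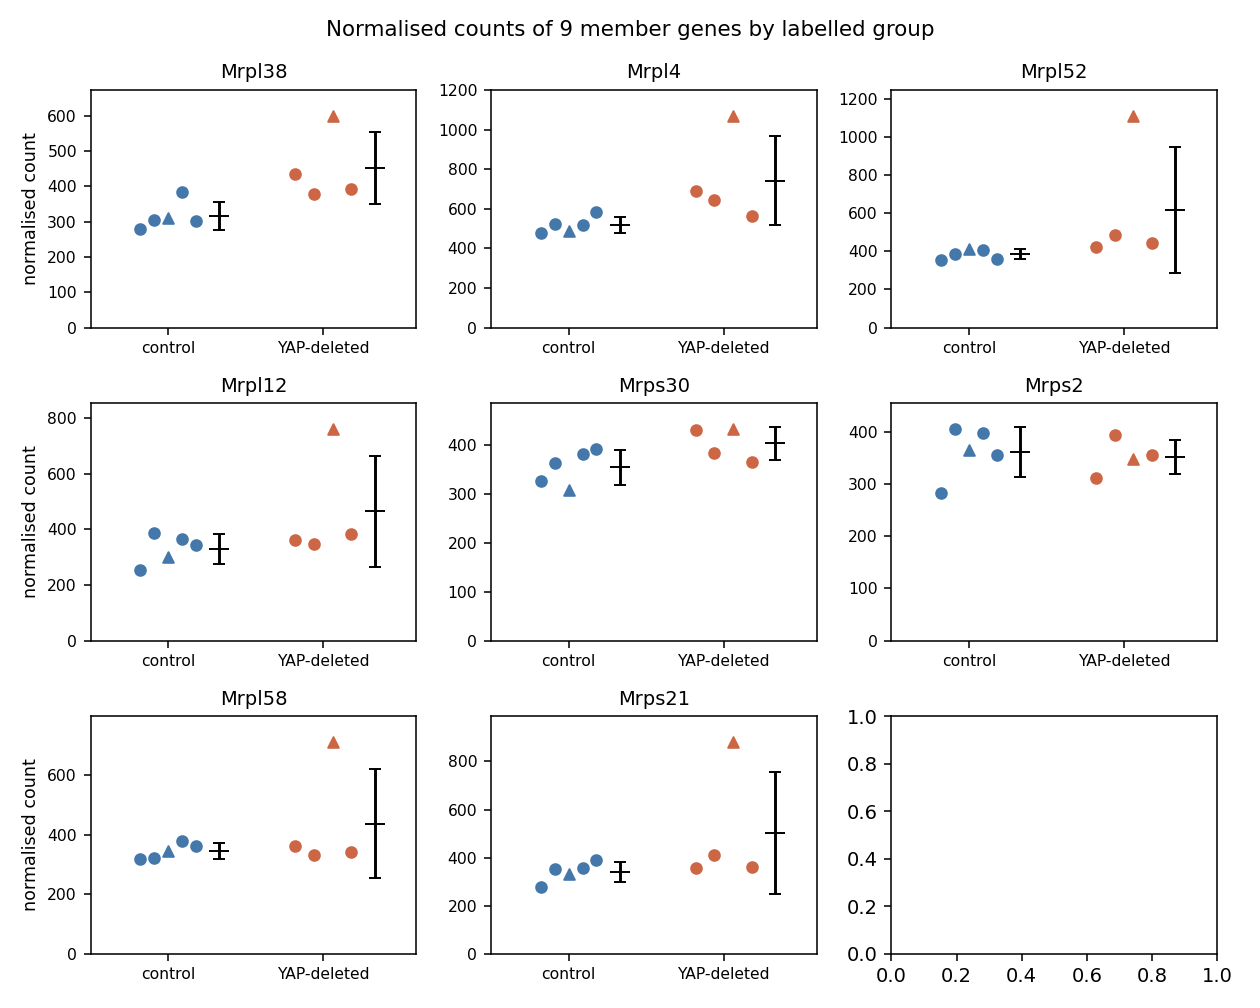
Normalised counts (y axis, from 0) in the 5 libraries labelled control and the 4 labelled YAP-deleted. The genes are Mrpl38, Mrpl4, Mrpl52, Mrpl12, Mrps30, Mrps2, Mrpl58 and Mrps21. Black bars give mean and SD of each group, and triangles mark LYT013 and LYT014. The triangle of LYT013 stands apart at the top for Mrpl52 (1111), Mrps21 (882) and Mrpl12 (761), and lies among the other libraries for Mrps2 (347).

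Proteins with a distinct role did not pass the test either. Mrpl12, which forms the stalk that recruits translation factors and also binds the mitochondrial RNA polymerase, had 253, 386, 301, 367 and 344 normalised counts in the 5 controls and 361, 348, 761 and 385 in LYT006, LYT008, LYT013 and LYT016. All but LYT013 overlapped, and the difference was 0.37 ± 0.21 over 9 libraries. Mrpl10, which anchors that stalk, ran from 515 in LYT004 to 670 in LYT015 among controls and from 633 to 771 among those labelled YAP-deleted, with a difference of 0.13 ± 0.11. Mrpl58, a peptidyl-tRNA hydrolase that frees stalled ribosomes, had 320 to 380 in controls and 361, 330, 711 and 343 in LYT006, LYT008, LYT013 and LYT016. Only LYT013 lay outside the control range of Mrpl58, and its difference was 0.23 ± 0.19. Mrps36, the adaptor of oxoglutarate dehydrogenase, had 185 to 238 in controls, 220 to 278 in LYT006, LYT008 and LYT016 and 354 in LYT013, with a difference of 0.24 ± 0.14.

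The 3 Mrps18 paralogs encode related proteins at separate sites, Mrps18a in the large subunit and the other two in the small subunit. Mrps18a had 292 to 334 normalised counts in the 5 controls, 348, 333 and 335 in LYT006, LYT008 and LYT016, and 595 in LYT013. Mrps18b had 123 to 187 in controls, 153, 138 and 167 in LYT006, LYT008 and LYT016, and 323 in LYT013. Mrps18c had 134 to 200 in controls, 170, 163 and 204 in LYT006, LYT008 and LYT016, and 393 in LYT013. LYT013 was highest in all 3, as in most of the 78 genes, and the next was LYT006 in Mrps18a, LYT015 in Mrps18b and LYT016 in Mrps18c. The differences were 0.27 ± 0.16, 0.24 ± 0.20 and 0.26 ± 0.20 over 9 libraries.

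Across libraries, 8 of 9 carried a similar amount of these transcripts. The 78 genes together took 1075, 1273, 1153, 1194 and 1229 CPM in controls LYT004, LYT005, LYT014, LYT015 and LYT017, and 1208, 1244, 2040 and 1196 in LYT006, LYT008, LYT013 and LYT016. LYT013 alone stood apart. The mean value over the 78 genes was 8.18, 8.42, 8.28, 8.37 and 8.39 log2-like units in the controls in that order, and 8.36, 8.38, 9.03 and 8.38 in those labelled YAP-deleted. Per gene, the SD had a median of 0.27 over 9 libraries and of 0.14 over the 8 without LYT013.

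LYT013 was the highest of the 9 libraries in 76 of the 78 genes, against 26.8% of all tested genes. Its value exceeded the median of the other 8 by a median of 0.70 log2-like units (from -0.05 in Mrps2 to 1.32 in Mrpl52). On the scale of normalised counts the ratio had a median of 1.75 and ran from 0.963 to 2.72. In 48 of the 78 genes LYT013 lay above the highest of the other 8 by more than their whole range, against 7.86% of all genes. The 2 exceptions to its first rank were Mrps2, where it ranked 7 of 9, and Mrpl1, where it ranked 3. Mrpl1, of the large-subunit stalk at the exit of used tRNAs, had 157 to 234 normalised counts in controls, with LYT017 highest, and 195, 203, 220 and 222 in LYT006, LYT008, LYT013 and LYT016. The ratio was 1.11 in Mrpl1 and also small in Mrpl44 (1.11), where LYT013 had 309.3 beside 309.1 in LYT005, in Mrps30 (1.16), where it had 433 beside 430 in LYT006, and in Mrpl10 (1.21). Genes of the same particle thus differed in LYT013 from no excess in Mrps2 to 2.72 times in Mrpl52.

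**Figure D3:**
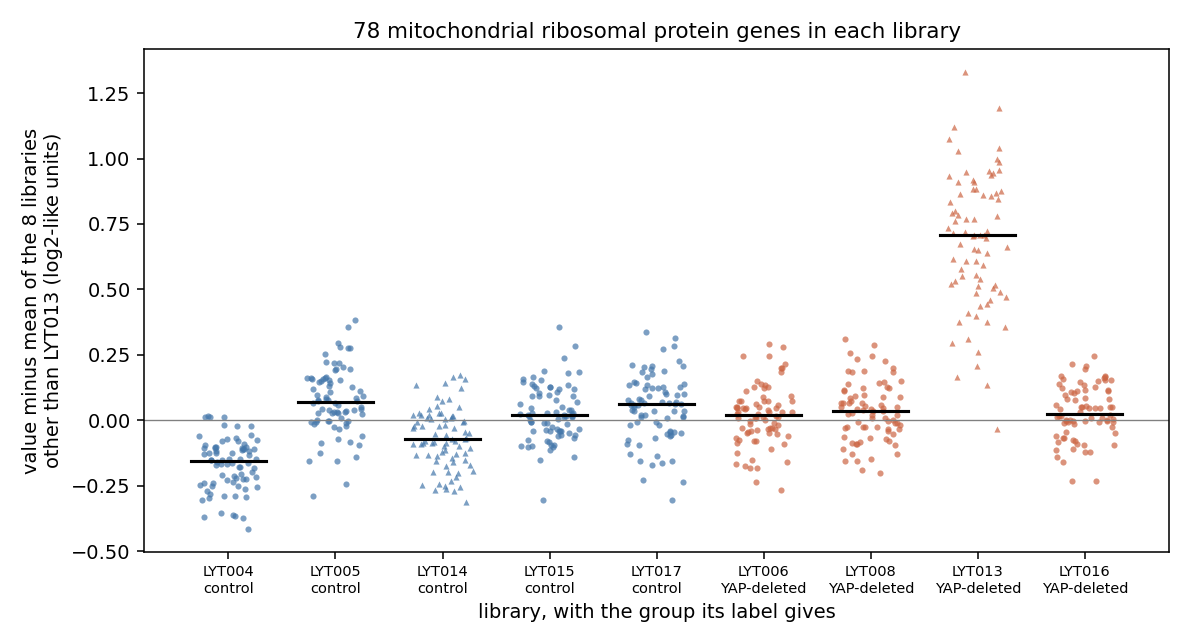
Value of each of the 78 genes minus its mean over the 8 libraries other than LYT013 (y axis, log2-like units) in each library (x axis), with the median as a black bar and triangles for the libraries whose Yap1 level went against the label. The medians of 8 libraries lie close to 0, and LYT013 is the highest library in 76 of the 78 genes, up to 1.32 over the median of the other 8 in Mrpl52.

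LYT013 differed from the other libraries in further measures, whose part in this excess was not tested. It had the most counts (31816055 against 14052502 to 22917865). Its hepatocyte markers summed to 1391 normalised counts, the highest of 9, beside 1158 in LYT015. LYT013 was the highest library in 5 of these 10 markers. Its lymphocyte markers summed to 13.76, also the highest, but only 2 of the 7 lay above the lowest value there. Its mesothelial markers were the lowest at 209.4, and its cholangiocyte markers were the lowest at 26.33, beside 28.09 in LYT014. Whether cell content differed was not tested. The 78 genes summed to 38830 normalised counts in LYT013 and to 19410 to 23680 in the other 8.

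Transcript length moved with the level in LYT013. The 78 genes had a median transcript length of 1051.5 bases (405 to 6073), against 2076 over tested genes. Genes were set beside 6307 other protein-coding genes of the same range of levels. Under 1000 bases, the 36 ribosomal genes exceeded the median of the other libraries by a median of 0.86, against 0.46 in 1135 other genes. LYT013 was highest in 36 of these 36, against 62.2% of the others. From 1000 to 2000 bases the medians were 0.54 in 24 genes and 0.27 in 1866 others, with LYT013 highest in 24 of 24 against 51.2%. At 2000 bases or more they were 0.48 in 18 genes and -0.19 in 3306 others, with LYT013 highest in 16 of 18 against 15.9%. After a smooth trend in length and GC content was taken out of every library, an alternative chosen after seeing the data, the median excess was 0.52 and was positive in 75 of 78 genes, against 50.9% of 17110 tested genes. By length class the medians were then 0.54, 0.35 and 0.71, against 0.18, 0.12 and -0.03 in the other genes of the same level range. Spearman's rho of the excess with length was -0.58 over the 78 genes and -0.52 over the others, as a description within 1 library. The part of length in the excess was not tested.

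**Figure D4:**
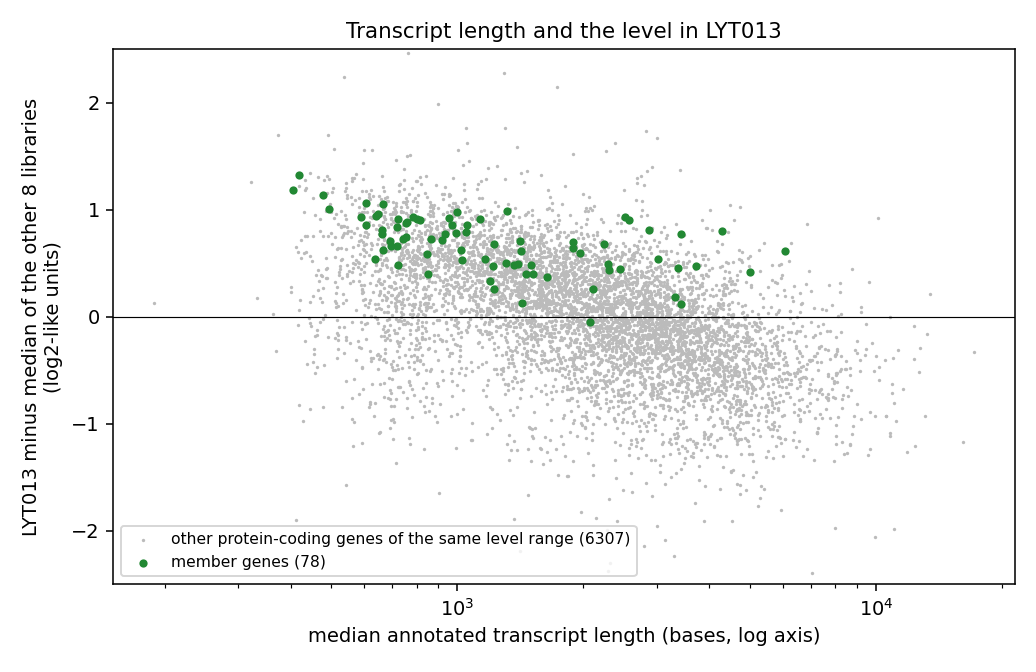
LYT013 minus the median of the other 8 libraries (y axis, log2-like units) against median annotated transcript length in bases (x axis, log scale) for the 78 genes in green and 6307 other protein-coding genes of the same level range in grey; 8 other genes lie beyond ±2.5 and are not drawn. Grey genes fall from a median of 0.46 under 1000 bases to -0.19 at 2000 bases or more, and the green genes lie mostly above 0 at every length, with medians of 0.86 and 0.48 in these classes.

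LYT004, a control whose Yap1 level fitted its label, stood at the other end. It was the lowest library in 39 of the 78 genes, against 18.1% of all genes, and lay below the median of the other 8 in 77. Its mean over the 78 genes was 0.17 below the mean of the 8 libraries other than LYT013. Similar lists, described further on, were also low in LYT004. It lay 0.18 below that mean in oxidative phosphorylation genes and 0.20 below in mitochondrial ribosome proteins with other names. In cytosolic ribosomal protein genes it lay 0.07 below. Cell cycle genes, a list of 20 from Mki67 to Birc5, gave another order: LYT004, LYT005 and LYT008 lay 1.49, 1.89 and 1.41 above the 8-library mean, and LYT006, LYT013, LYT015, LYT016 and LYT017 lay 1.10 to 1.36 below it. In ribosomal genes LYT005 lay 0.07 above that mean, next below LYT013. The part of cycling in these values was not tested. The large and the small subunit moved together, with the large-subunit mean 0.03 to 0.10 above the small-subunit mean in every library.

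The rest of the machinery of mitochondrial translation was compared through lists, none of which had a gene past the adjusted threshold over 9 or over 7 libraries. The 5 proteins of the particle that carry other names, Dap3, Ptcd3, Chchd1, Aurkaip1 and Gadd45gip1, had 4 positive differences and 1 negative, with a median of 0.18. In LYT013 their mean lay 0.67 above the 8-library mean, close to the 0.68 of the 78 genes. Aurkaip1 had 410 to 551 normalised counts in the 5 controls, 501, 558 and 473 in LYT006, LYT008 and LYT016, and 1079 in LYT013. Gadd45gip1 had 224 to 276 in controls, 325, 274 and 271 in LYT006, LYT008 and LYT016, and 472 in LYT013. Both genes had overlapping groups, and their differences were 0.29 ± 0.20 and 0.33 ± 0.15.

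Assembly factors, which modify the ribosomal RNA and mount the subunits, had 18 positive and 8 negative differences among 26 tested, with a median of 0.10 over 9 libraries and 0.00 over 7. LYT013 was highest in 19 of the 26 and their mean there lay 0.34 above the 8-library mean. Mpv17l2 and Mettl17 had the smallest p-values, with 0.37 ± 0.17 and 0.24 ± 0.13 over 9 libraries. The 21 mitochondrial aminoacyl-tRNA synthetases and their partners, which charge the tRNAs, had 14 positive and 7 negative differences with a median of 0.08, and LYT013 was highest in 10. Among them Fars2 had 0.30 ± 0.13 and Mars2 -0.26 ± 0.14. Lars2 stood far above the rest of this list, at 70480 to 177200 normalised counts, and Iars2 followed at 1113 to 1392. In LYT013, Lars2 lay 0.97 above the median of the other 8 libraries, and it enters the mean of this list. Why Lars2 was so high was not tested. The 11 initiation, elongation and release factors tested had 6 positive and 5 negative differences with a median of 0.01, and LYT013 was highest in 4. Mtif2, the initiation factor that brings the first tRNA, had 349 to 441 normalised counts in the 5 controls and 321, 324, 320 and 343 in LYT006, LYT008, LYT013 and LYT016. All 4 libraries labelled YAP-deleted lay below the 5 controls, where 1.15% of all genes were lower without overlap. Mtif2 was named for its small p, and its difference was -0.21 ± 0.10 (limma adjusted p = 0.649). Tsfm, an elongation factor partner, had 0.32 ± 0.18, with 273 in LYT013 against 92.7 to 156 elsewhere.

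The 21 genes of mitochondrial DNA expression and its regulators had 13 positive and 8 negative differences with a median of 0.03, and LYT013 was highest in 6. Polrmt, the mitochondrial RNA polymerase, had 328 to 400 normalised counts in controls and 461, 473, 378 and 391 in LYT006, LYT008, LYT013 and LYT016, with a difference of 0.24 ± 0.11. Esrra, a nuclear receptor that drives genes of respiration, had 229 to 282 in controls and 346, 302, 432 and 321 in the same libraries labelled YAP-deleted. The groups of Esrra did not overlap, where 1.69% of all genes were higher without overlap, and Esrra was named for its small p. Its difference was 0.37 ± 0.12 (limma adjusted p = 0.649) over 9 libraries and 0.31 ± 0.10 over 7 (limma adjusted p = 0.670). The factors whose motifs were searched are named here for that reason, after their values were seen. Nrf1 had 384 to 503 normalised counts in the other 8 libraries and 453 in LYT013. Gabpa, the DNA-binding part of GABP, had 1063 to 1338 and 573, and Yy1 had 1428 to 1937 and 1329. LYT013 thus lay within the range of the other libraries for Nrf1 and below it for Gabpa and Yy1. The activity of these factors was not measured, and their part in the levels was not tested.

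The messages that the mitochondrial ribosome reads had no raised mean in LYT013. Of the 13 mitochondrially encoded messages, LYT013 was highest in 4 and lowest in 6, where it was highest in 26.8% and lowest in 24.7% of all genes. Their mean in LYT013 lay 0.21 below the 8-library mean, within the range of the other libraries, from 0.30 below it in LYT017 to 0.20 above it in LYT005. Over 9 libraries 5 differences were positive and 8 negative, with a median of -0.04. Members varied widely in LYT013: mt-Nd4l had 1067 normalised counts there against 3845 to 5238 elsewhere, and mt-Co2 had 59540 against 32510 to 40000. Over 9 libraries mt-Nd5 had a difference of -0.37 ± 0.18 and mt-Nd4l of -0.56 ± 0.36. The ribosomal RNAs of the mitochondrion were not analysed here.

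Other nuclear genes of ribosomes and respiration were also high in LYT013. The 80 tested cytosolic ribosomal protein genes had 80 positive differences over 9 libraries with a median of 0.33, and a mean in LYT013 that lay 1.03 above the 8-library mean. The 75 genes of oxidative phosphorylation had 74 positive differences with a median of 0.32, and a mean 0.95 above. Over 7 libraries the medians were 0.07 and 0.08. The excess of the mitochondrial ribosomal genes in LYT013 was thus smaller than in these 2 lists. It was larger than in the synthetases, factors and regulators, in which LYT013 lay 0.17 to 0.20 above. The lists also differed in median transcript length. It was 712.8 bases in cytosolic ribosomal proteins, 651 in oxidative phosphorylation, 1051.5 in the 78 genes, 2042 in synthetases, 1799 in factors and 1793 in regulators. With the length and GC trend removed, the median excess was 0.80, 0.77, 0.52, 0.20, 0.12 and 0.04 in the same order. These differences between lists were not tested.

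**Figure D5:**
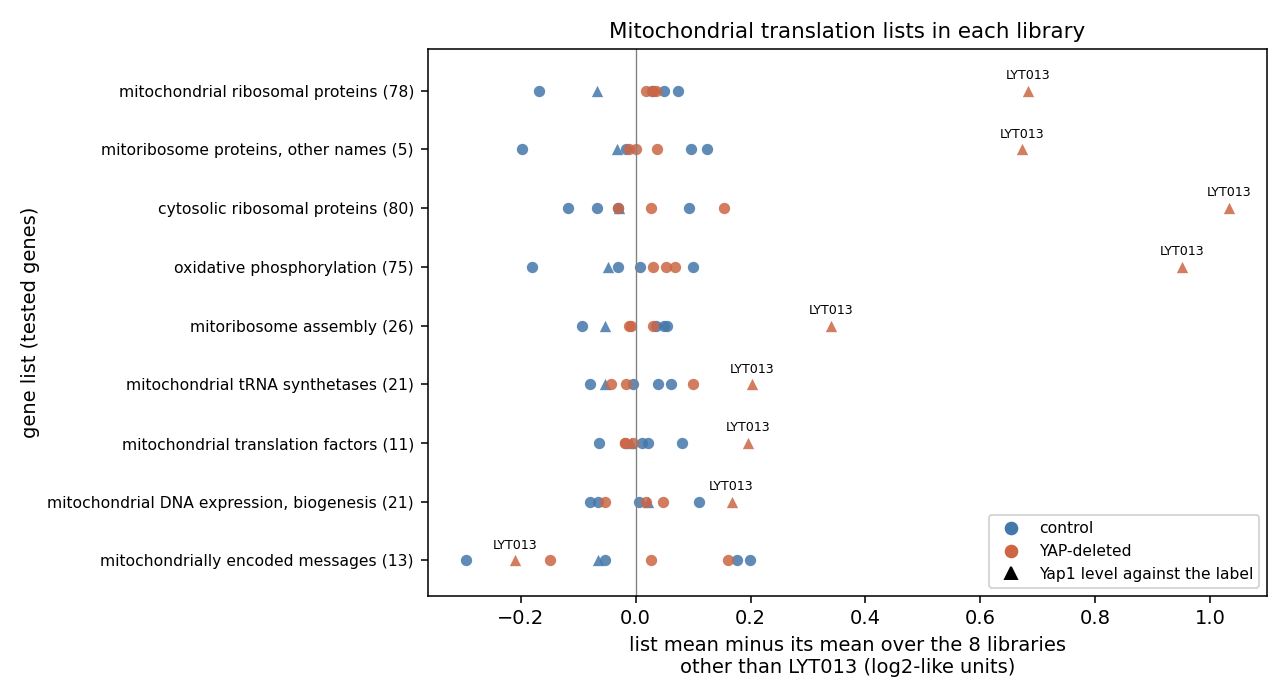
Mean of each gene list in each library minus its mean over the 8 libraries other than LYT013 (x axis, log2-like units), with control and YAP-deleted in blue and orange and triangles for LYT013 and LYT014. LYT013 lies at 0.68 for the 78 mitochondrial ribosomal protein genes, 1.03 for cytosolic ribosomal proteins and 0.95 for oxidative phosphorylation, 0.17 to 0.34 for assembly factors, synthetases, translation factors and regulators, and -0.21 for mitochondrially encoded messages.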

How the data were processed

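Bulk RNA sequencing gave 9 libraries, 5 labelled control and 4 labelled YAP-deleted, grouped by title and matched to columns by library code (the column of LYT013 was headed LYT013.1). Per the labels' protocols both poly-A and ribosomal depletion preparations exist, without saying which each library had. The submitters' processing notes name kallisto 0.44.0, sleuth and bcl2fastq 2.20. The authors deposited variance-stabilised values on a log2 scale, 1 per gene name and library, with a floor of 4.96. How the authors made them was not given in the sources used here. Inverting them gave whole counts (within 0.1) for 100% of values, and normalised counts are these divided by the size factor. The log2-like scale understates changes of low genes.

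Genes above the floor in at least 4 libraries (17203) were fitted with limma 3.58.1 in R 4.3.3 on group, with trended moderation, two-sided, Benjamini-Hochberg adjusted at 0.05 over all genes, and the procedure was tested on simulated data. Named genes were those with the smallest p, highest and lowest level per length, largest and smallest spread or a distinct role, and up to 2 per pathway list. Alternatives covered filters, scaling, transformation, moderation, weights, covariates, library ranges and left-out libraries. The removal of a length and GC trend was chosen after seeing the data. The members, lists and tests were chosen with earlier results of these data known. Positions and lengths came from GENCODE M21 on GRCm38, promoters from RefSeq. Protein sequences were not used here.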

Additional observations from a re-analysis of the deposited data

Results flagged for a closer look

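Within the 4 libraries labelled YAP-deleted, LYT013 lay far above the other 3 in the mean over the 78 genes and in 7 of the named genes, judged by the gap to its neighbour as a share of the range of the group (limit 0.829 for 4 libraries). That share was 0.973 for the mean of the 78 genes, 0.946 for Mrpl10, 0.925 for Mrpl33, 0.925 for Mrps18a, 0.889 for Mrpl58, 0.878 for Mrpl12, 0.857 for Mrpl52 and 0.850 for Mrps21. Mrpl33, a small large-subunit protein, had 183 to 248 normalised counts in controls, 196, 212 and 200 in LYT006, LYT008 and LYT016, and 512 in LYT013. Within the 5 controls, LYT005 lay far above the others in Mrpl19, with 243 normalised counts against 164 to 180, a share of 0.767 (limit 0.710). Chance gives about 1 such gap in 20 groups. These 9 of 46 groups cannot be read against that share, since 8 of them are the same library and Mrpl52, Mrps21 and Mrpl33 were among the genes named for a large SD.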

How the results depend on the processing

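No gene of the mitochondrial ribosome passed the threshold under any of the 23 alternatives. Their median difference was positive in each, but smallest without LYT013 and LYT014, at 0.01 with 28 of the 78 genes negative. With 1 library left out it ran from 0.04 without LYT013 to 0.28 without LYT006. It was 0.07 with library weights, 0.30 with voom and 0.16 with the length and GC trend removed. Codes 4 to 8 gave 0.07 and codes 13 to 17 gave 0.36. Without LYT013 and LYT014, 3 of all genes were called higher and 8 lower, and in codes 4 to 8 1 and 1, against 0 and 0 over 9 libraries. Yap1 then passed the threshold, at -2.22 (limma adjusted p = 8.97e-05) and -2.07 (limma adjusted p = 0.0267). Neither of these settings holds LYT013 or LYT014. Codes 13 to 17, which hold both, gave -0.627 for Yap1 (limma adjusted p = 0.824). The p-value of 8.97e-05 rests on libraries chosen by their Yap1 level. Why Yap1 and label disagree in LYT013 and LYT014 was not tested. Of 506 values of named genes, 23 changed sign. Without LYT013 and LYT014, Mrpl19 had -0.110, Mrpl23 -0.155, Mrpl33 -0.00218 and Mrpl58 -0.000388. In codes 4 to 8, Mrps2 had 0.0365, Mrpl19 -0.237, Mrpl33 -0.0532 and Mrps18b -0.00462, and in codes 13 to 17 Mrpl23 had -0.0535. With library weights Mrpl19 had -0.0728 and Mrpl23 -0.176. Mrpl23 had -0.114 with the cell cycle mean as covariate and -0.115 without the length and GC trend. With 1 library left out, values ran from -0.101 to 0.0198 in Mrps2 and from -0.180 to 0.117 in Mrpl23, and from the value without LYT013 upward in Mrpl42 (-0.00779 to 0.288), Mrpl19 (-0.0799 to 0.131), Mrpl33 (-0.0188 to 0.371) and Mrpl58 (-0.00126 to 0.327). The cause of these sign changes was not tested. No paired analysis was possible because the numbers in the labels are library codes and the groups share none. Depth left every gene of the 78 with at least 14 counts.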
